A study of Rattus norvegicus with 18 samples.

Results

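Serum response factor and a set of early-response genes linked to it were measured in rat hippocampal neurons: Srf itself, the zinc-finger genes Egr1, Egr2, Egr3 and Egr4, and the immediate early response genes Ier2, Ier3 and Ier5. The members were all probe sets that the array annotation assigns to 1 of these 8 gene symbols alone, which gave 14 of the 31042 probe sets and 8 of the 14217 genes. The neurons were grown in dissociated culture and received a lentivirus on day 3 in vitro that carried either MEF2-VP16-ER or the control MEF2deltaDBD-VP16-ER. The first is a fusion of the transcription factor MEF2 with the viral VP16 activation domain and the estrogen receptor's ligand-binding domain. The control fusion lacks the DNA-binding domain. On day 10, 4OHT (4-hydroxytamoxifen, the ligand that activates such a receptor fusion) was present for 0, 1 or 2.5 h in both kinds of culture. Each of the 6 groups held 3 arrays, numbered in the labels as biological replicates 1 to 3, so 18 arrays were compared. All 6 groups carried a lentivirus and a VP16 fusion, and MEF2-VP16-ER is an activated form of MEF2 rather than the neurons' own factor. The promoter of the lentivirus, the share of transduced cells and the source of each replicate culture are not given in the sources used here, so p-values measure the spread between these samples.

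SRF belongs to the same MADS-box family of DNA-binding proteins as MEF2, and it binds an A/T-rich element called the CArG box. It acts with ternary complex factors such as Elk1, which answer to MAP kinase signalling, and with myocardin-related factors, which answer to free actin. Synaptic activity drives Egr1 and other immediate early genes through SRF in neurons. The Egr proteins in turn bind a GC-rich site, and some of them, Egr1 included, are held back by the corepressors Nab1 and Nab2.

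RefSeq promoters of build GRCr8 were at hand for 6 of the 8 genes: Srf, Egr1, Egr2, Egr4, Ier2 and Ier5. The 250 bases before the annotated start were searched on both strands for the CArG box (by its name, in its consensus form) and are printed for the 3 genes that held one, since these carry the element that links the group to SRF. Capitals mark the CArG boxes, and each sequence runs 5′ to 3′ on the gene's strand. The Srf window lies at chr9:21923826-21924075 on the plus strand, that of Egr1 at chr18:26736828-26737077 on the plus strand, and that of Egr2 at chr20:21054442-21054691 on the minus strand.
Srf: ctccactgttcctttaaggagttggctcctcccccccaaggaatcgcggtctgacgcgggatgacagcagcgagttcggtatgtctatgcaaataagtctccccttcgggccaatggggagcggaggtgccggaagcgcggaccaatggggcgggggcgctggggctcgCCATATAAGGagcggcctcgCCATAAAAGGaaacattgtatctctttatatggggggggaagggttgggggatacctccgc
Egr1: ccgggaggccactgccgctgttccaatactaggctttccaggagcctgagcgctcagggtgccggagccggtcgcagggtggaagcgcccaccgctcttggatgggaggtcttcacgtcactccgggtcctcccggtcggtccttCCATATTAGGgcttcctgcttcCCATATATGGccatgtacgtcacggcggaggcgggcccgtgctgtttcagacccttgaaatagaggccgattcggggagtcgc
Egr2: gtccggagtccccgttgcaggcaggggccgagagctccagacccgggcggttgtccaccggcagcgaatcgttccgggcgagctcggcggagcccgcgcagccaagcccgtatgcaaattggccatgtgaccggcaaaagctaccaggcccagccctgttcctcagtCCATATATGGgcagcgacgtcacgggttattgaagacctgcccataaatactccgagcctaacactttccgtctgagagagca

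Srf and Egr1 each held 2 CArG boxes and Egr2 held 1, whereas Egr4, Ier2 and Ier5 held 0 in this window. In Srf the boxes were CCATATAAGG from −81 to −72 and CCATAAAAGG from −61 to −52, counted from the start. In Egr1 they were CCATATTAGG from −105 to −96 and CCATATATGG from −83 to −74. The Egr2 box had the same letters, CCATATATGG, and the same place, −83 to −74, as the second Egr1 box. A CArG box was found in 501 of 33469 RefSeq promoters of this length (1.5%). The letters TGACG, which begin the cyclic AMP response element bound by CREB, stood from −66 to −62 in both Egr1 and Egr2, on the strand opposite to the printed one. On either strand, TGACG was present in 5 of the 6 windows, all but Ier5, against 18.2% of all promoters. The 2 matches in Ier2 overlapped each other on opposite strands. The Egr site GCGNGGGCG was found once, in Srf from −100 to −92, against 4.29% of all promoters. No window held the MEF2 consensus, which 2.96% of all promoters held. These matches describe letters in a short window and say nothing of binding in these neurons.

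**Figure D1:**
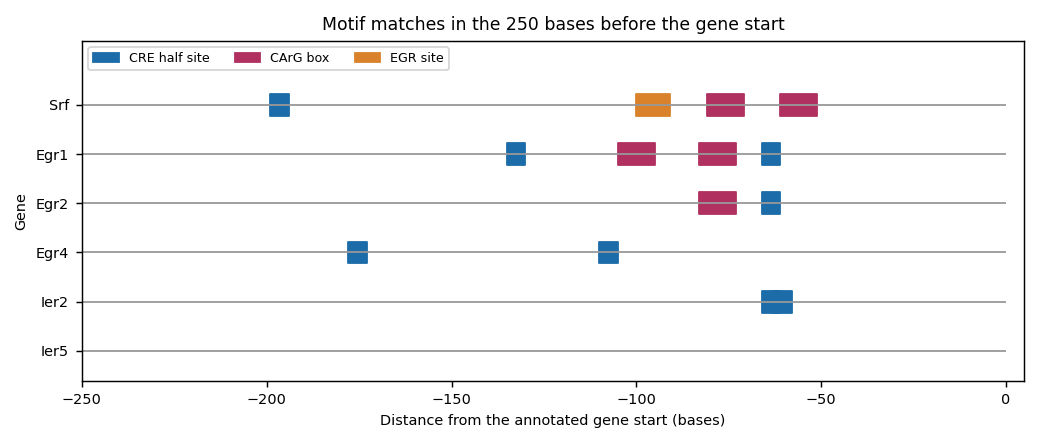
Positions of motif matches in the 250 bases before the annotated start of the 6 member genes with a RefSeq promoter; the horizontal axis is distance from the start in bases. CArG boxes lie in Srf, Egr1 and Egr2, and the boxes shared by Egr1 and Egr2 sit at the same distance, −83 to −74.

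The arrays were alike in overall brightness. The median intensity per array lay between 190.4 and 197, and the lower quartile between 67.48 and 71.14. The number of arrays limits the precision of every comparison. Neuron markers fixed as a list (14 genes, among them Map2, Tubb3 and Snap25) had a median intensity of 2960 to 3160 over the 6 groups, and astrocyte markers (8 genes, among them Gfap and Aqp4) had 6070 to 6490. The medians were 201 to 219 for oligodendrocytes, 127 to 144 for microglia, 104 to 115 for fibroblasts and 58 to 64.4 for endothelium. Levels of different probe sets cannot be compared, and single markers such as Olig1 (mean intensity 5560) and Pdgfra (3130) were far above their list's median. The arrays measure RNA from whole cultures, in which fewer cells of a type and less RNA per cell cannot be told apart.

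Changes are given on the log2(intensity + 16) scale, which understates the change of dim probe sets. Induction stands for the difference between the constructs in their change after 4OHT, MEF2-VP16-ER minus control. In the limma fit with 1 mean per group, 0 of the 14 probe sets were called at an adjusted p under 0.05 in any of the 10 comparisons. At an unadjusted p under 0.05, 1 of the 14 passed for induction at 2.5 h and 1 for the change at 2.5 h within MEF2-VP16-ER neurons, and 0 did in the other 8 comparisons. Over all 31042 probe sets, 1485 passed for that induction and 1919 for that change. The count was 1459 for induction at 1 h and 1216 for the difference between the 2 times. Within MEF2-VP16-ER neurons it was 1293 for the change at 1 h and 1663 from 1 h to 2.5 h. The share of all 31042 probe sets called was 0.177% for induction at 2.5 h, 0.00322% for induction at 1 h and 0.0419% for the difference between the 2 times. It was 0.0354% for the change at 1 h, 0.789% for the change at 2.5 h and 0.283% from 1 h to 2.5 h within MEF2-VP16-ER neurons. It was 0% for the 3 changes within control neurons and for the constructs at 0 h, where 840, 667, 671 and 2736 probe sets had an unadjusted limma p under 0.05 (control at 1 h, at 2.5 h, between them, and constructs).

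Samples of the same replicate number deviated together, except in replicate 2 for MEF2-VP16-ER neurons at 0 h with 1 h. There the correlation of deviations was 0.068, against 0.536 and 0.692 in replicates 1 and 3. Induction at 1 h and the MEF2-VP16-ER change at 1 h, which hold this pair, were therefore not counted as paired. For the paired comparisons a second limma fit held the replicate number as a block, which takes out each replicate's own level. With the block, 2 of the 14 probe sets were called for induction at 2.5 h, both lower (Srf and Egr1). Of all probe sets 0.937% were called there, and 0.374% were called lower. For the change at 2.5 h within MEF2-VP16-ER neurons, the same 2 members were called lower, against 2.33% of all probe sets called and 0.999% called lower. From 1 h to 2.5 h in these neurons, 1 of the 14 was called, Egr1, against 1.29% of all called and 0.422% called lower. None of the 14 was called with the block in the other 5 paired comparisons, where 0.399% of all probe sets were called for late minus early induction and 0.00322% for the control change at 2.5 h. Over all probe sets, the block gave 0 calls for the control change at 1 h. It gave 3 for the control from 1 h to 2.5 h and 1 for the constructs at 0 h. In those 5, between 0 and 2 of the 14 had an unadjusted blocked p under 0.05. The share of all probe sets under that blocked p was not counted, so this count has no background and nothing is concluded from it.

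On the bright probe set 1388842_at, Srf, the CArG-binding factor, was highest in control neurons and lowest in MEF2-VP16-ER neurons, both at 2.5 h. This probe set read 1221, 1339 and 1348 in control replicates 1, 2 and 3 at 0 h. The controls read 1287, 1362 and 1415 at 1 h and 1346, 1389 and 1681 at 2.5 h. The MEF2-VP16-ER neurons read 1222, 1452 and 1436 at 0 h, and 1161, 1256 and 1313 at 1 h. At 2.5 h they read 974.4, 1124 and 1231. All 3 of these last values lay below all 3 control values of the same time, and they overlapped those of the MEF2-VP16-ER neurons at 0 h by a narrow margin, 1231 against 1222.

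Induction of Srf at 2.5 h was −0.47 ± 0.14 (SE, n = 3 arrays per group), 1.39-fold lower, with a limma adjusted p of 0.428 without the block and 0.0081 with it. Replicates 1, 2 and 3 gave −0.46, −0.42 and −0.53, so all 3 lay on the same side within a narrow span. Within MEF2-VP16-ER neurons the change from 0 h to 2.5 h was −0.30 ± 0.10, with a limma adjusted p of 0.343 without the block and 0.00814 with it. Control neurons changed by 0.17 over the same time, which was not called in either limma fit (adjusted p 0.999 with the block). Both parts entered the induction, a lower value in one construct and a higher value in the other. At 1 h, induction of Srf was −0.19, not called. The Srf call at 2.5 h with the block was kept when any single array was left out and was lost when a whole replicate number was left out, at adjusted p of 0.139 to 0.174. The call for the change within MEF2-VP16-ER neurons was lost without replicate 2 of their 0 h group (0.0614) and without any replicate number (0.0596 to 0.165).

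The other Srf probe sets did not show this difference. Probe set 1374829_at gave an induction at 2.5 h of 0.04 ± 0.16, and 1395378_at gave 0.02 ± 0.12. The latter was dim, with intensities from 48.4 to 72.1, below or near the lower quartile of the arrays. The decline of Srf thus rested on 1 of its 3 probe sets, and the parts of the transcript that each one reads were not compared.

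Egr1, a zinc-finger factor rapidly raised by synaptic activity, differed more between replicates than between treatments. Control replicates 1, 2 and 3 read 3050, 2186 and 834.4 at 0 h, 3679, 2436 and 1057 at 1 h, and 2603, 1605 and 921.5 at 2.5 h. The MEF2-VP16-ER neurons read 3456, 2139 and 1474 at 0 h, and 3101, 2350 and 1154 at 1 h. At 2.5 h they read 1688, 1401 and 594.9. Replicate 3 was the lowest in each of the 6 groups and replicate 1 the highest, so every pair of groups overlapped. The lowest value of all 18 was replicate 3 of the MEF2-VP16-ER neurons at 2.5 h.

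Within each replicate number, Egr1 was lower at 2.5 h than at 0 h in MEF2-VP16-ER neurons, by −1.03, −0.60 and −1.29 in replicates 1, 2 and 3. The mean change was −0.97 ± 0.59 without the block, a 1.96-fold lower level that was not called in the limma fit. With the block its SE was 0.122 and its limma adjusted p 0.000207, so Egr1 fell beyond the spread within replicate numbers. The fall lay between 1 h and 2.5 h, at −0.87, −0.74 and −0.94 in the 3 replicates, with a blocked adjusted p of 0.00156 in limma. Both of these calls were kept in every single-array and replicate-number omission tried.

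Control neurons also had lower Egr1 at 2.5 h than at 1 h in all 3 replicates (−0.50, −0.60 and −0.20), which was not called (limma adjusted p 0.841 with the block). The difference between the constructs in this late change was −0.42. It was not called either (limma adjusted p 0.579 with the block), so a late fall beyond that of control was not shown. Against control, induction of Egr1 at 2.5 h was −0.80 ± 0.83 without the block, 1.74-fold lower. With the block the SE was 0.173, the 95% interval ran from −1.16 to −0.43, and the limma adjusted p was 0.0389. The 3 replicates gave −0.80, −0.16 and −1.43, a wide span around the mean. Without any 1 array of replicate 1 or of replicate 3 the call was lost, at adjusted p of 0.0593 to 0.123, and it was kept without any 1 array of replicate 2. It was also lost without replicate number 1, 2 or 3 as a whole, at adjusted p of up to 0.431. At 0 h, before 4OHT, Egr1 in MEF2-VP16-ER minus control neurons was 0.18, −0.03 and 0.81 in replicates 1, 2 and 3, so the largest induction value came from the replicate with the largest difference at the start.

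**Figure D2:**
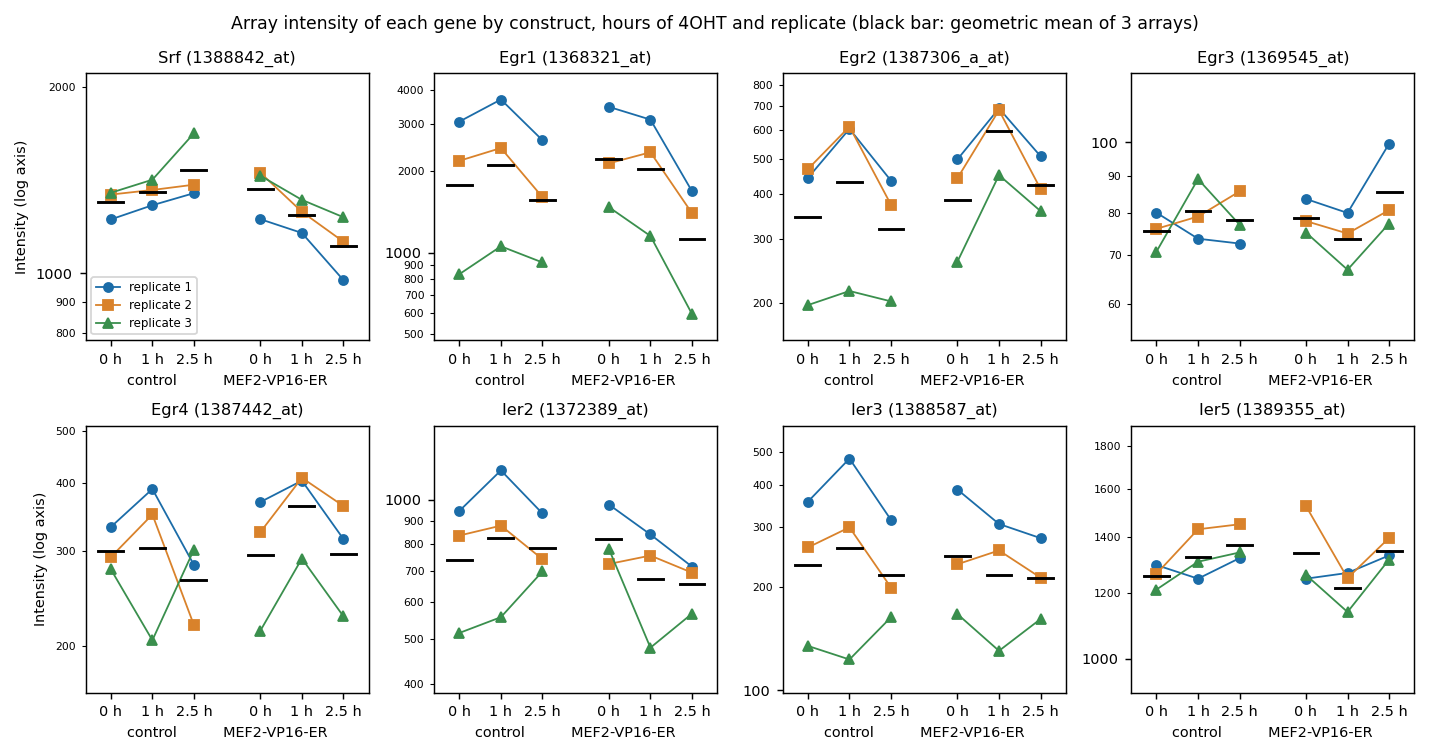
Deposited intensity on each of the 18 arrays (log axis) for the brightest probe set of each gene, against hours of 4OHT in control and MEF2-VP16-ER neurons. Points and lines mark the replicate number and black bars the geometric mean of 3 arrays. For Egr1 the replicate 3 points lie lowest in each group, while for Srf the MEF2-VP16-ER points at 2.5 h lie below the control points at 2.5 h.

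Egr2, a close relative of Egr1, had its highest group means at 1 h in both constructs. In control neurons its bright probe set, 1387306_a_at, read 443.2, 468.7 and 197.7 at 0 h, 605.1, 613.7 and 216.2 at 1 h, and 435.4, 373.7 and 202.4 at 2.5 h. In MEF2-VP16-ER neurons it read 498.5, 442.4 and 260.5 at 0 h, and 688.9, 681.1 and 451 at 1 h. At 2.5 h it read 508.6, 413.4 and 359.1. The values at 1 h were above those at 0 h in each replicate of both constructs, and replicate 3 was the lowest in every group.

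The change of Egr2 from 0 h to 1 h was 0.45, 0.60 and 0.76 in replicates 1, 2 and 3 of the MEF2-VP16-ER neurons, and 0.44, 0.38 and 0.12 in those of the control. The mean in MEF2-VP16-ER neurons was 0.60 ± 0.41, not called. From 1 h to 2.5 h it was −0.43, −0.70 and −0.32, a difference that limma did not call with the block (adjusted p 0.257). Induction of Egr2 was 0.29 at 1 h and 0.23 ± 0.57 at 2.5 h. The blocked 95% interval at 2.5 h ran from −0.26 to 0.72, which leaves room for differences of either sign. The second Egr2 probe set, 1398266_a_at, was dim (65.3 to 91.3) and had an induction of −0.11 ± 0.10 at 2.5 h.

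Egr4, another Egr factor of active neurons, was followed by 1387442_at. This probe set read 331.9, 291.9 and 277.1 in control replicates at 0 h, 390.3, 350.1 and 204.7 at 1 h, and 282.3, 218.4 and 301.3 at 2.5 h. The MEF2-VP16-ER neurons read 369.2, 324.7 and 213.2 at 0 h, 404.5, 409.4 and 290.1 at 1 h, and 315.3, 363 and 226.7 at 2.5 h. The groups overlapped, although the change at 1 h in MEF2-VP16-ER neurons was above 0 in each replicate (0.13, 0.32 and 0.42). Induction at 2.5 h was 0.17 ± 0.34, with a blocked 95% interval from −0.33 to 0.67. The second Egr4 probe set, 1375784_at, stayed between 103 and 123 on all 18 arrays.

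Egr3 was read by 1 probe set near the lower quartile of the arrays, so a change in its level may not have been measurable here. Its intensities ran from 66.78 to 99.53 over the 18 arrays. Induction at 2.5 h was 0.05 ± 0.12. Unlike the bright Egr probe sets, its replicate 3 differed from the mean of replicates 1 and 2 by −0.07.

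Among the Ier genes, Ier2, a nuclear immediate early protein, had replicate levels ordered much as for Egr1. In control neurons it read 945, 836.1 and 515 at 0 h, 1156, 878.2 and 557.1 at 1 h, and 933, 743.3 and 699.4 at 2.5 h. In MEF2-VP16-ER neurons it read 975.3, 725.7 and 781.9 at 0 h, 840.4, 756.8 and 478.6 at 1 h, and 716.2, 695.1 and 566.8 at 2.5 h. The 2.5 h values of the MEF2-VP16-ER neurons were below those at 0 h in each replicate (−0.44, −0.06 and −0.45). Induction at 2.5 h was −0.40 ± 0.38, with replicate values of −0.42, 0.11 and −0.88. The blocked 95% interval ran from −0.81 to 0.01 and the limma adjusted p with the block was 0.61, so no call was made.

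Ier3, a stress-inducible gene that modulates cell survival and MAP kinase signalling, spread widely between replicates. Control neurons read 357, 262.1 and 134.8 at 0 h, 477.5, 300.2 and 123 at 1 h, and 315.6, 199.9 and 163.6 at 2.5 h. MEF2-VP16-ER neurons read 387.3, 234 and 167.1 at 0 h, 307.1, 256.8 and 130.4 at 1 h, and 279.1, 213.8 and 161.6 at 2.5 h. Replicate 3 was the lowest of each group. Induction at 2.5 h was −0.11 ± 0.65, and the 3 replicates gave −0.28, 0.24 and −0.30.

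Ier5, an immediate early gene tied to the heat shock response, varied little. Its probe set 1389355_at read 1296, 1265 and 1211 in control neurons at 0 h, 1248, 1431 and 1308 at 1 h, and 1321, 1451 and 1342 at 2.5 h. In MEF2-VP16-ER neurons it read 1248, 1526 and 1261 at 0 h, 1268, 1250 and 1138 at 1 h, and 1331, 1397 and 1316 at 2.5 h. Induction was −0.21 at 1 h and −0.11 ± 0.11 at 2.5 h, not called in either limma fit at 2.5 h (blocked adjusted p 0.832). The other Ier5 probe sets, 1375202_at and 1389882_at, were dim, and their inductions at 2.5 h were −0.07 and 0.03.

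**Figure D3:**
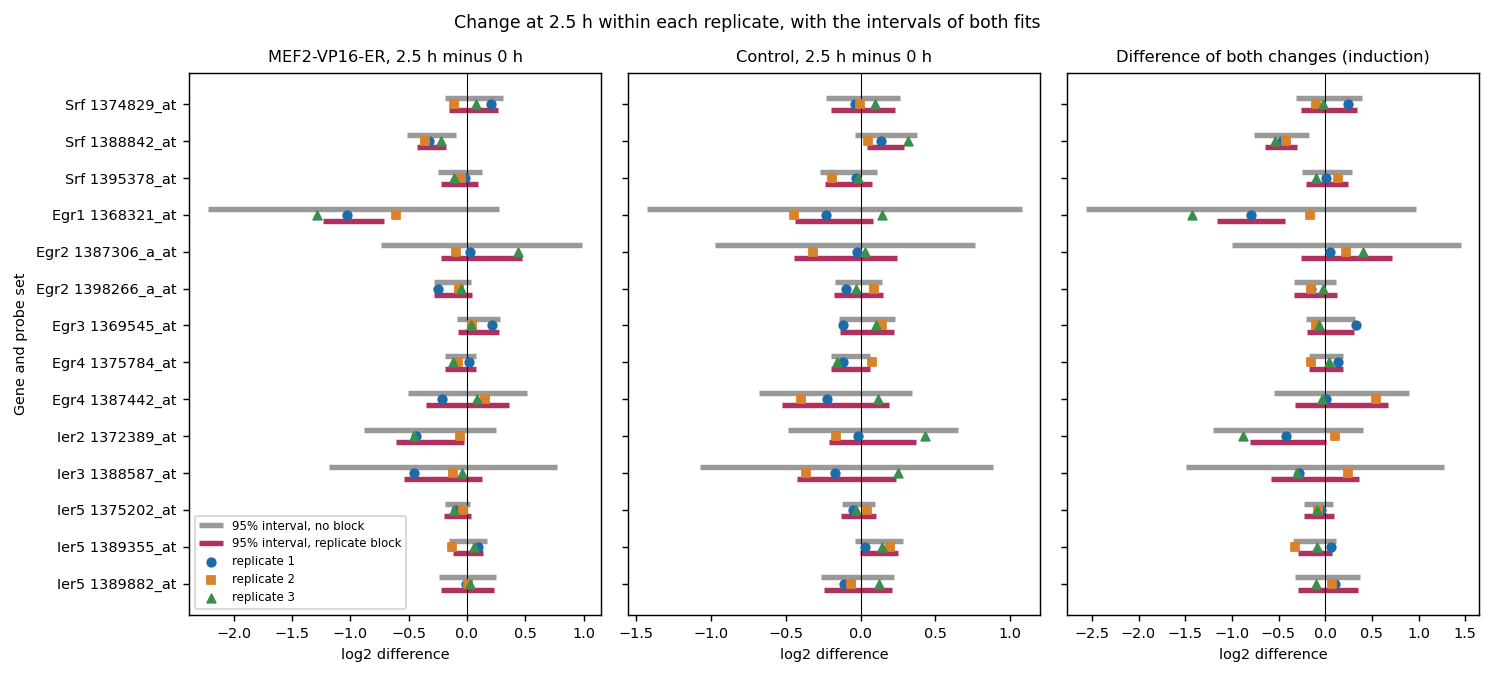
Log2 difference of the 14 probe sets from 0 h to 2.5 h in MEF2-VP16-ER neurons, in control neurons, and the difference of both (induction); points are single replicates, and bars are the 95% intervals of the limma fits without (grey) and with (red) the replicate block. On probe set 1388842_at, Srf induction at 2.5 h is close to the same in the 3 replicates (−0.46, −0.42 and −0.53). Egr1 spans −1.43 to −0.16.

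Over the 14 probe sets, induction at 2.5 h was above 0 for 7 and below 0 for 7, with a median of −0.03 against 0.00 over all probe sets. At 1 h, 3 were above 0 and 11 below, with a median of −0.13 against −0.02. The members were chosen with earlier results of these data known, so these medians are descriptions.

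The spread between replicates was large for 5 of the 8 genes. The SD between replicates of a group, pooled over the 6 groups, was 0.80 for Egr1 on the log2 scale, 0.62 for Ier3, 0.55 for Egr2, 0.36 for Ier2 and 0.32 for Egr4. The median over all probe sets was 0.10. Of all probe sets, 0.139% had a larger SD than Egr1, 0.412% than Ier3, 0.648% than Egr2, 2.46% than Ier2 and 3.37% than Egr4. The SD of Srf was 0.13 and that of Ier5 0.09, nearer the middle of the array. Once the replicate level was taken out, the SD was 0.17 for Egr1, 0.23 for Ier3, 0.24 for Egr2, 0.20 for Ier2 and 0.24 for Egr4, against a median of 0.09.

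Replicate 3 lay below the mean of replicates 1 and 2 by −1.28 for Egr1, −0.92 for Ier3, −0.88 for Egr2, −0.50 for Ier2 and −0.40 for Egr4, averaged over the groups. A replicate 3 as low relative to the others as that of Egr1 was seen in 0.029% of all probe sets, and the median over genes was 0, with 7115 of 14217 genes lower. Srf went the other way, with replicate 3 higher by 0.15. For Egr1, Egr2 and Ier3 replicate 3 was the lowest in each group of both constructs. Single groups of Ier2 and Egr4 departed from this order. For Egr4 in control neurons at 2.5 h, replicate 3 was the highest (301.3). For Ier2 in MEF2-VP16-ER neurons at 0 h, replicate 3 (781.9) lay above replicate 2 (725.7). Some measures of RNA quality and of cell makeup differed by replicate number too. The log2 ratio of 3′ to 5′ signal of beta-actin was 0.883 to 1.237 in replicate 3, against 1.123 to 1.469 in replicates 1 and 2. For GAPDH it was 0.035 to 0.113 against 0.082 to 0.36. For hexokinase, replicate 3 (1.955 to 2.479) lay inside the range of replicate 1 (1.833 to 2.858). Oligodendrocyte markers had a median of 0.37 in replicate 3 minus the others, with 2 of 7 genes lower. The median was −0.06 for neurons (12 of 14 lower), −0.15 for microglia (7 of 8), −0.09 for fibroblasts (6 of 6) and 0.00 for endothelium (3 of 5). For astrocytes it was −0.01 (4 of 8 lower), with single genes far apart, Gfap at −1.17 and Aldh1l1 at 0.98. Their part in the replicate levels was not tested.

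**Figure D4:**
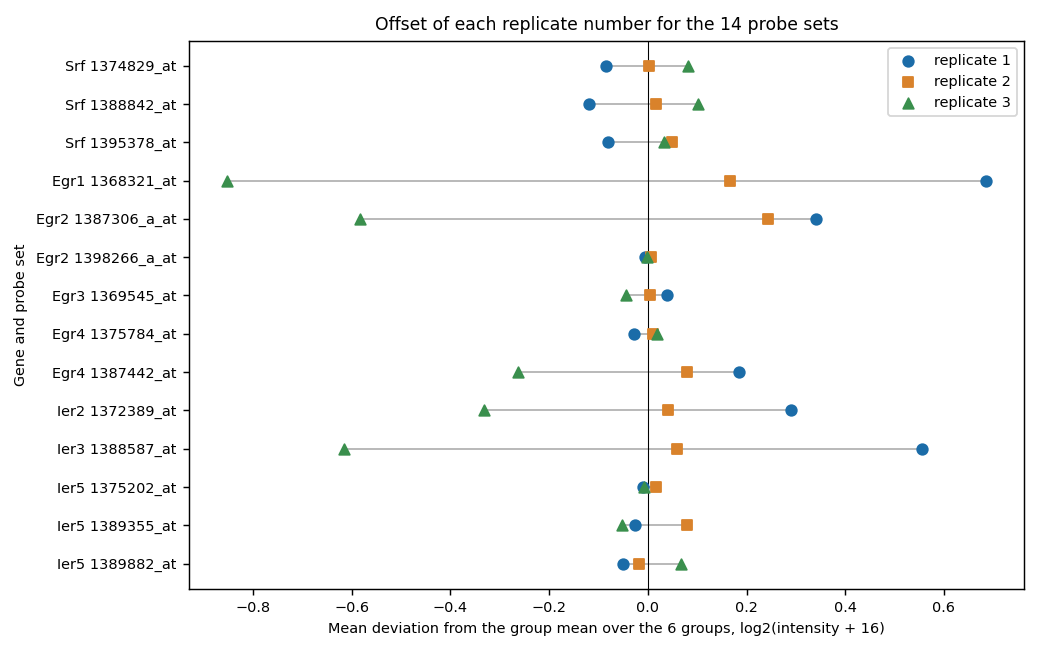
Mean deviation of replicates 1, 2 and 3 from the group means over the 6 groups, on the log2(intensity + 16) scale, for the 14 probe sets. Egr1, Egr2, Ier2, Ier3 and Egr4 have replicate 3 below 0 (Egr1 at −0.85), while Srf has it slightly above (0.10).

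The members with the widest spread moved together across arrays, some pairs more closely than others. Over the 18 arrays Pearson's r was 0.90 for Egr1 with Ier3, 0.87 for Egr1 with Ier2, 0.92 for Ier2 with Ier3 and 0.74 for Egr1 with Egr2. It was lower for Egr1 with Egr4 (0.656), Egr2 with Ier2 (0.554) and Egr4 with Ier2 (0.505). Srf with Egr1 gave −0.25. After the group means were taken out, Egr1 with Ier3 gave 0.96 and Srf with Egr1 gave −0.80, so Srf and Egr1 deviated in opposite directions between replicates. These are descriptions, since arrays of one replicate number share their level. By Pearson's r over the 18 arrays, with the group means left in, the genes most like Egr1 were Bcl2l11 (0.967), Tgif1 (0.962) and Btg3 (0.959). Those most like Egr2 were Klf4 (0.942), Ccsap (0.9) and Bcl6 (0.899), and those most like Srf were Wnt4 (0.949), Kctd6 (0.935) and Fam110a (0.922). Ier2 was closest to Tmem39a (0.957), Tasp1 (0.937) and Hilpda (0.934), and Ier3 to Cdr2 (0.965), Eola2 (0.962) and Nktr (0.957). The closest genes to Egr4 were Fgd5 (0.845), Zfp182 (0.834) and Npas2 (0.815). For Ier5 they were Adcy3 (0.786), Galnt18 (0.782) and C2cd5 (0.767), and for the dim Egr3 Myo18b (0.81), Krtap1-5 (0.789) and Garin5a (0.765).

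Of the 6 SRF cofactors listed, 5 were measured, and 0 were called in either limma fit for induction at 2.5 h, with 0 at an unadjusted p under 0.05. Induction at 2.5 h was 0.12 ± 0.10 for Mrtfa, 0.06 ± 0.13 for Myocd, −0.06 ± 0.17 for Elk1, −0.05 ± 0.30 for Elk3 and 0.21 ± 0.23 for Elk4.

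The Egr corepressors differed from each other. Induction of Nab2 at 2.5 h was −0.82 ± 0.47, with a limma adjusted p of 0.0413 with the block and no call without it. Its change at 2.5 h within MEF2-VP16-ER neurons was −0.63 (blocked adjusted p 0.0113). Like Egr1, Nab2 was lower in replicate 3, by −0.72. The call for induction was lost without 10 of the 12 single arrays, at adjusted p of up to 0.138, without any whole replicate number (0.122 to 0.244), and with a pseudocount of 64 (0.0671). The call for the change within MEF2-VP16-ER neurons was lost without replicate 3 of either group (0.0833 at 0 h, 0.0506 at 2.5 h) and without replicate number 1 (0.0622) or 2 (0.123). Nab1 had an induction of 0.41 ± 0.11, not called (blocked adjusted p 0.0824), and its change within MEF2-VP16-ER neurons was 0.36, called with the block (limma adjusted p 0.0102). The third co-regulator, Ddx20, gave 0.02.

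Other immediate early genes linked to SRF included several with a higher induction at 2.5 h. Of 34 listed, 32 were measured, 21 had an induction above 0, and the median was 0.16 against −0.01 over all genes. The induction of 4 was called higher and that of 0 lower at an adjusted p under 0.05, against 0.177% of all probe sets called. This list, like the others, was chosen with earlier results of these data known. Its median and calls therefore describe the chosen genes and cannot test SRF-linked genes as a class. Of the 26 listed genes with a RefSeq promoter, 2 held a CArG box in the window of any of their promoters (7.69%). The share over all promoters, 1.5%, was counted per promoter and not per gene, so these shares are in unlike units. Induction was 2.11 ± 0.25 (limma adjusted p 0.00149) for Rgs2, a brake on G protein signalling, and 0.77 ± 0.10 (0.00506) for the kinase gene Sgk1. For the orphan nuclear receptor genes Nr4a1 and Nr4a3 it was 1.11 ± 0.19 (0.0299) and 0.63 ± 0.10 (0.0148). Within MEF2-VP16-ER neurons alone these genes rose by 2.06 (Rgs2), 0.71 (Sgk1), 1.17 (Nr4a1) and 0.41 (Nr4a3) from 0 h to 2.5 h, each called by limma without the block. With the block 5 inductions were called higher, against 0.937% of all probe sets called. Klf6 (0.89, limma adjusted p 0.00105) was the added gene, and its change within MEF2-VP16-ER neurons was 0.56. Of the 32 changes at 2.5 h within these neurons, 11 were called higher with the block and 1 lower. The lower one was Dusp5 (−0.49, limma adjusted p 0.00343), and 2.33% of all probe sets were called there. Fos had an induction of 1.07 ± 0.87, about as large as that of Nr4a1 but with a far wider error, and it was not called in either limma fit. In the fit without the block, the 4 inductions called higher became 2 when replicate 2 of the control at 0 h was left out. The count was 0 without replicate number 1 or 2, and 2 without replicate number 3. In this list too, replicate 3 was lower for 24 of 32 genes, with a median of −0.18.

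The cytoskeletal genes that SRF drives with myocardin-related factors had a median induction of 0 at 2.5 h. Of 38 listed, 34 were measured, 17 were above 0, and 0 were called in either limma fit (at an unadjusted p under 0.05, 0 without the block and 1 with it). Their median replicate 3 offset was 0.02. Among 21 neuronal genes linked to Egr factors, 0 were called in limma without the block, where 3 had an unadjusted p under 0.05. With it, Nr4a2 was called higher (1.00), and Nab2 (−0.82) and Ntf3, a neurotrophin gene (−0.71, limma adjusted p 0.0124), were called lower. Of all probe sets 0.937% were called in that fit. Of 30 genes of upstream signalling, 23 were measured and 0 were called in either limma fit, with 2 at an unadjusted p under 0.05. Ier5l, a paralogue of Ier5, had an induction of −0.48 ± 0.13, not called. Its change at 2.5 h within MEF2-VP16-ER neurons was −0.41, with a limma adjusted p of 0.0476. Single cell type markers were called beside these genes. Induction of Neurod6, 1 of 14 neuron markers, was −0.55 (limma adjusted p 0.0275 with the block), and its change at 2.5 h within MEF2-VP16-ER neurons was −0.66, called without the block too (0.0158). The neuron list as a whole was split, with 7 of 14 inductions above 0 and a median of −0.008. No other neuron marker was called for induction at 2.5 h in either limma fit. Of 7 oligodendrocyte markers 6 had an induction below 0, with a median of −0.17 and 0 called in either limma fit (at an unadjusted p under 0.05, 1 without the block and 2 with it). The change of Olig2 within MEF2-VP16-ER neurons was −0.42, called with the block (limma adjusted p 0.0196). None of the astrocyte, microglia, fibroblast or endothelium markers was called in either limma fit at 2.5 h. This held for induction and for the change within MEF2-VP16-ER neurons. At an unadjusted p under 0.05, 1 astrocyte marker passed for induction without the block. With the block, 1 of 8 astrocyte and 2 of 8 microglia markers passed for induction. The share of all probe sets passing unadjusted with the block was not counted, so the blocked unadjusted counts of these lists have no background. The part of these cells in the members' values was not tested.

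**Figure D5:**
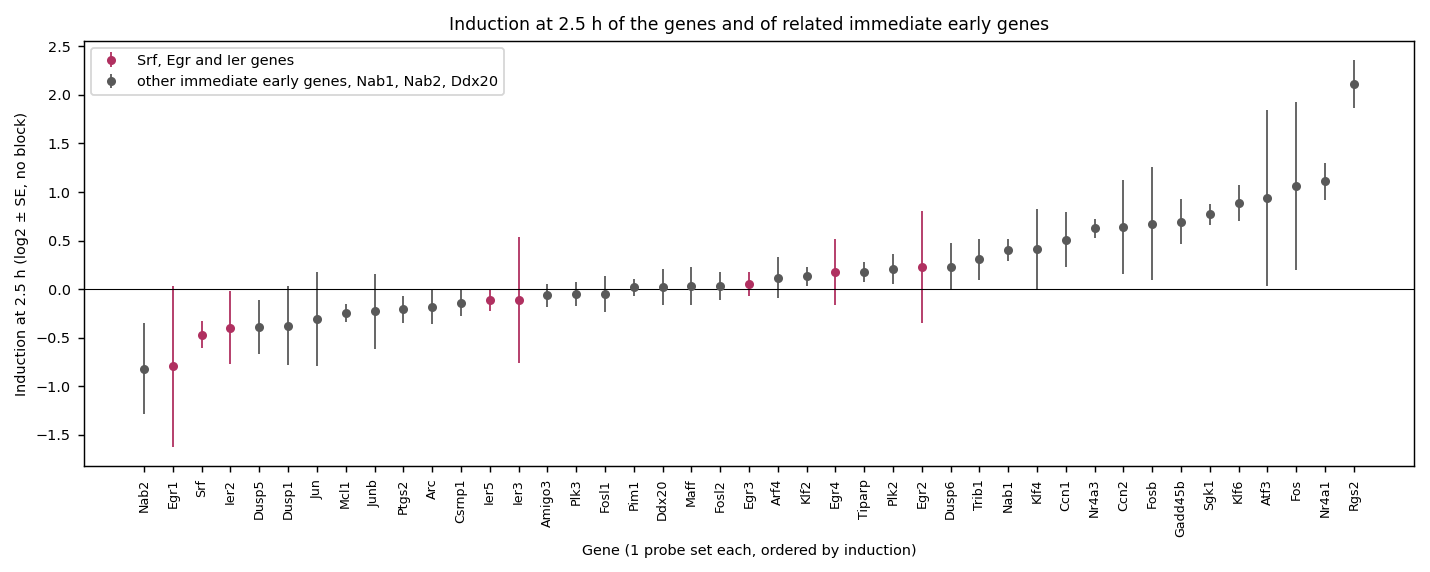
Induction at 2.5 h on the log2(intensity + 16) scale with its SE (no block) for the member genes in red and, in grey, the other immediate early genes with Nab1, Nab2 and Ddx20, 1 probe set per gene in order of induction. Rgs2 (2.11) lies above the other genes drawn, Nr4a1 (1.11) and Fos (1.07) come next with errors of unlike width, and Nab2 (−0.82) lies near Egr1 (−0.80).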

How the data were processed

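Affymetrix rat arrays were hybridised with labelled RNA from 18 cultures. The deposited values were used as linear intensities per probe set, and the method by which the authors normalized them is not stated. Intensities were taken to log2(intensity + 16) and fitted with limma 3.58.1 in R 4.3.3 (lmFit, eBayes), 1 mean per group over all 18 arrays, with Benjamini-Hochberg adjustment over 31042 probe sets. Figures were drawn with matplotlib 3.10.9 in Python 3.11.15. Control probe sets were left out. The script was tested on simulated data. Replicate numbers in the labels were checked for pairing by the correlation of deviations from group means. This was above 0.1 for 44 of 45 pairs (highest 0.791) and 0.068 for replicate 2 of MEF2-VP16-ER at 0 h with 1 h. The block therefore stands beside all comparisons but the induction at 1 h and the MEF2-VP16-ER change at 1 h. All member probe sets were named, as were the SRF cofactors, Nab1, Nab2, and up to 4 called genes per list. Likeness was Pearson's r, the top 3 genes per member. The members and lists were chosen with earlier results of these data known. For a gene with several probe sets the one with the highest mean log2 value was used in lists. Alternatives were another scaling, pseudocount, filter, variance model, samples in the fit, the replicate block and leaving out arrays. Of the probe sets, 20826 had 1 gene symbol, 436 had several and 9780 had none, and those with several were not named.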

Additional observations from a re-analysis of the deposited data

Results flagged for a closer look

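A difference between the constructs in the effect of 4OHT was called for 2 member probe sets when the replicate number was held as a block. For Srf (1388842_at) the difference at 2.5 h was −0.471 (limma adjusted p 0.0081 with the block), in the same direction in 3 of 3 replicates. For Egr1 it was −0.796 (0.0389), also lower in 3 of 3 replicates, with a range from −1.427 to −0.163. Neither was called without the block, and both calls were lost when any 1 replicate number was left out. The other Srf probe sets, 1374829_at and 1395378_at, gave 0.041 and 0.019. The Egr1 value of −1.427 came from replicate 3, where the constructs already differed by 0.809 at 0 h.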

How the results depend on the processing

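The replicate block raised the members called from 0 to 2 for induction at 2.5 h, from 0 to 2 for the MEF2-VP16-ER change at 2.5 h, and from 0 to 1 for that from 1 h to 2.5 h. Over all probe sets it raised the calls from 55 to 291, 13 to 124, 245 to 724 and 88 to 399 in the induction at 2.5 h, late minus early, change at 2.5 h and 2.5 h minus 1 h. In the comparisons not counted as paired, the block called 0 members. It made 9 calls against 1 in all for induction at 1 h and 58 against 11 for the change at 1 h. It gave 1, 3 and 1 calls for the control at 2.5 h, the control from 1 h to 2.5 h and the constructs at 0 h. It changed no other call of a member. Combinations of the block with the other settings were added after seeing the data, unlike the block itself. The Egr1 induction of −0.796 was not called with the arrays of its contrast alone (adjusted p 0.105), nor with a pseudocount of 64 (−0.765, 0.065). The Srf change of −0.302 in MEF2-VP16-ER neurons was not called with its own groups alone (0.0697). The causes were not tested. With single arrays or replicate numbers left out, the blocked induction ran from −1.113 to −0.481 for Egr1 and from −0.527 to −0.415 for Srf, and the blocked Srf change from −0.343 to −0.26. Without the block, leaving out arrays turned the sign of 11 values that were never called. At 1 h induction ran from −0.872 to 0.161 for Egr1, −0.182 to 0.675 for Egr2, −0.014 to 0.449 for Egr4 and −0.832 to 0.082 for Ier3. At 2.5 h it ran from −0.086 to 0.608 for Egr2, −0.047 to 0.355 for Egr4 and −0.4 to 0.254 for Ier3. The MEF2-VP16-ER change at 2.5 h ran from −0.146 to 0.302 for Egr2, −0.214 to 0.188 for Egr4, −0.47 to 0.099 for Ier3 and −0.042 to 0.102 for Ier5. Counts over all probe sets left out this way ran from 5 to 64, 0 to 2, 0 to 13, 1 to 15, 52 to 225 and 8 to 78 for induction at 2.5 h and 1 h, late minus early, and the changes at 1 h, at 2.5 h and between them. With the groups of the contrast alone they were 32, 0, 1, 4, 75 and 0. For induction at 1 h, quantile scaling gave 3 calls, and median centring, bright probe sets alone and a trended variance gave 2, and for late minus early the bright probe sets alone gave 7. Dim probe sets of Egr3, Srf, Egr2 and Ier5 limit what could be seen.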
